A study of Mus musculus with 4 samples.

Results

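Expression of 10 genes of the actin cytoskeleton and of cell adhesion was examined, namely Actb, Actg1, Cfl1, Pfn1, Flna, Myh9, Tpm4, Tln1, Vcl and Zyx. They are 10 of the 17655 genes in the deposited table, found by their symbols, and all 10 were above the expression filter described below. They were chosen by earlier results of these data, that is on their FPKM in the 4 libraries and the ratios between them, so their levels and ratios are given as a description. RAW264.7 cells, a mouse macrophage line, were made permeable with digitonin and incubated for 24 h, and total RNA was sequenced to measure the response to immunogenic sugars. A single library came from each of 4 conditions. Cells got 10 µM of ManGn, the synthetic disaccharide Manβ1-4GlcNAc, in water; 10 µM of fOS, the pool of free oligosaccharides isolated from Trex1-/- mouse embryonic fibroblasts, in water; water from a mock fOS extraction; or ultrapure water. Digitonin, medium, serum and culture time were shared by all 4, including both controls, and the fOS pool is a mixture of glycans, so its 10 µM is not the dose of 1 molecule. Water is the carrier control for ManGn, and the mock extraction is the control that shares the preparation of the fOS pool.

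Actin is a globular protein that polymerizes into filaments, and nonmuscle cells make mainly the beta and gamma forms encoded by Actb and Actg1. Profilin and cofilin govern how fast monomers join and leave the filaments, while filamin, nonmuscle myosin II and tropomyosin cross-link, pull on and coat them. Talin and vinculin tie filaments to integrins at adhesion sites, and zyxin marks the more mature and tensed of these sites. In macrophages this machinery drives spreading, migration and phagocytosis. Many of the genes are known targets of serum response factor (SRF), which binds the CArG box, and its coactivators of the MRTF family are held inactive by monomeric actin. Actb is in addition one of the most widely used reference genes for normalizing mRNA measurements.

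The 250 bases upstream of the start of a member gene are shown for the 2 genes whose promoter window held a CArG box, because SRF binding there is the textbook link between these genes. The sequences are from RefSeq on the mouse build GRCm38.p6 and run 5′ to 3′ on the strand of the gene, with the CArG box in capitals. The Actg1 sequence is chr11:120348496-120348745 on the minus strand, and the Vcl sequence is chr14:20929148-20929397 on the plus strand.
Actg1 promoter: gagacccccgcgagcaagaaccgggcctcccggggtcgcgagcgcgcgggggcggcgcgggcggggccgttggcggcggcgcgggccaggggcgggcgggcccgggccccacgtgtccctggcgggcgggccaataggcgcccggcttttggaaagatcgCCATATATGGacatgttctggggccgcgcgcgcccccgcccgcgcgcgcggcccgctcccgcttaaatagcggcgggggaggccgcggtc
Vcl promoter: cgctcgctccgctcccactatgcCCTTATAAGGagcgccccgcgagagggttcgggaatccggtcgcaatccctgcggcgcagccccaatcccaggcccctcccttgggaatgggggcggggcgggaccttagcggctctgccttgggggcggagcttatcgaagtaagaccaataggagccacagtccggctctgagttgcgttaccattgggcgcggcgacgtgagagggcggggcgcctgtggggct
The box lay 90 to 81 bases before the start in Actg1 and 227 to 218 bases before it in Vcl. The search covered windows of 300 bases, 250 before and 50 after the start, and the CArG box reads the same on both strands. Of the 9 genes matched to a RefSeq window, 2 (22.2%) held the box, against 535 of 32851 windows over all genes (1.63%) and 10 of 156 windows (6.41%) of the other genes on the actin and adhesion lists below. Actb had no entry. The match is a description of these letters, and SRF binding was not measured. The 2 genes that held the box differed in their levels: Actg1 was lowest with water, where Vcl was highest.

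Values are FPKM, mapped fragments corrected for transcript length and library total, and can be compared between genes. Ratios are log2 of FPKM plus 0.1 in 1 library over FPKM plus 0.1 in the other. The filter kept the 11183 genes that reached FPKM 1 in any library. Higher and lower below mean a 2-fold or larger ratio where 1 of the 2 libraries compared reached FPKM 1, unless a smaller fold is given. With 1 library per condition no difference has a replicate check, so there is no test, and each ratio compares 2 libraries. In bulk RNA, fewer cells of a kind and less RNA per cell cannot be told apart.

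The deposited values sum to between 484866 and 540141 FPKM per library, and 10405 to 10663 genes reached FPKM 1. Steps between low FPKM values gave an estimated 9985000 to 10671000 reads per library, although 59.4% to 61.1% of these values lay within 0.1 of a whole read, so the estimates are approximate. All 11 macrophage markers were at FPKM 1 or more in all 4 libraries, with sums of 9216 to 10210 FPKM, of which Lyz2 made up 6202 to 7250. Single markers varied: Cd14 was at 366.92 FPKM with ManGn, 385.14 FPKM with fOS, 253.59 FPKM with the mock extraction and 64.92 FPKM with water, and Spi1 was at 177.01 FPKM with ManGn, 237.98 FPKM with fOS, 207.02 FPKM with the mock extraction and 96.66 FPKM with water. Both were lowest with water, as most of the 10 genes were. Adgre1, Lyz2 and Tyrobp were instead highest with water, at 58.92, 7250 and 764.74 FPKM. With the mock extraction over water, 8 of the 11 markers had a positive log2 ratio and 3 a negative one (median 0.68). In that comparison 3 were 2-fold higher (9.24% of all genes tested) and 0 lower (6.69%). With ManGn over the mock extraction, 1 marker had a positive ratio and 10 a negative one (median -0.40). Of these markers 0 were 2-fold higher (3.51% of all genes) and 2 lower (3.47%). With fOS over the mock extraction, 3 were positive and 8 negative (median -0.13), with 0 higher (2.67%) and 1 lower (6.41%). The part of the markers in the results below was not tested. The 8 fibroblast markers (summed FPKM 0.02 to 0.16), the 5 lymphocyte markers in the table (0.38 to 0.61) and the 4 epithelial markers in the table (all listed at 0) stayed under FPKM 1. Of 6 smooth muscle markers, 5 were under FPKM 1 and the sixth, Tagln, an actin-binding protein, brought the sum to between 1.2 and 2.03.

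Nonmuscle actin mRNA was lowest with water, and the 3 other libraries stood above it. Actb was at 1096 FPKM with ManGn, 1755 FPKM with fOS, 1205 FPKM with the mock extraction and 422.65 FPKM with water. It was thus high in both ligand libraries and in the mock extraction alike. Relative to water, Actb was 4.15-fold higher with fOS, 2.85-fold higher with the mock extraction and 2.59-fold higher with ManGn (log2 ratios 2.05, 1.51 and 1.37). Relative to the mock extraction, it was 1.46-fold higher with fOS (log2 0.54) and 1.10-fold lower with ManGn (log2 -0.14). The largest of these ratios, with fOS over water, was matched or exceeded by 2.87% of all genes tested.

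Actg1, the gamma form, kept the same order of libraries over a narrower range. It was at 447.8 FPKM with ManGn, 726.21 FPKM with fOS, 582.32 FPKM with the mock extraction and 345.83 FPKM with water. Only fOS over water reached 2-fold (2.10-fold, log2 1.07), a call that was lost when libraries were scaled to the same upper quartile (log2 0.94), while the mock extraction was 1.68-fold above water and ManGn 1.29-fold above it. With ManGn it was 1.30-fold below the mock extraction. The remaining 4 actin genes in the table, those of striated and smooth muscle, were under FPKM 1: Acta2 reached 0.22, Acta1 reached 0.07, and Actc1 and Actg2 were listed at 0.

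The 2 actins did not move in step. The ratio of Actb to Actg1 FPKM was 2.45 with ManGn, 2.42 with fOS, 2.07 with the mock extraction and only 1.22 with water. Both ligand libraries and the mock extraction were alike in this ratio, and water stood apart. Summed, the actins made up 0.316% of all FPKM with ManGn, 0.512% with fOS, 0.360% with the mock extraction and 0.142% with water. Their coding sequences are 1128 bases each and differ at 128 bases. The longest run shared by the 2 transcripts is 62 bases, and 1.60% of the 50-base windows of the Actb transcript also occur in that of Actg1. Reads from such windows could be assigned to either gene, and the read length is not given in the sources used here. The sum of both actins, which is free of that assignment, was 1543.6 FPKM with ManGn, 2481.25 FPKM with fOS, 1786.93 FPKM with the mock extraction and 768.48 FPKM with water.

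**Figure D1:**
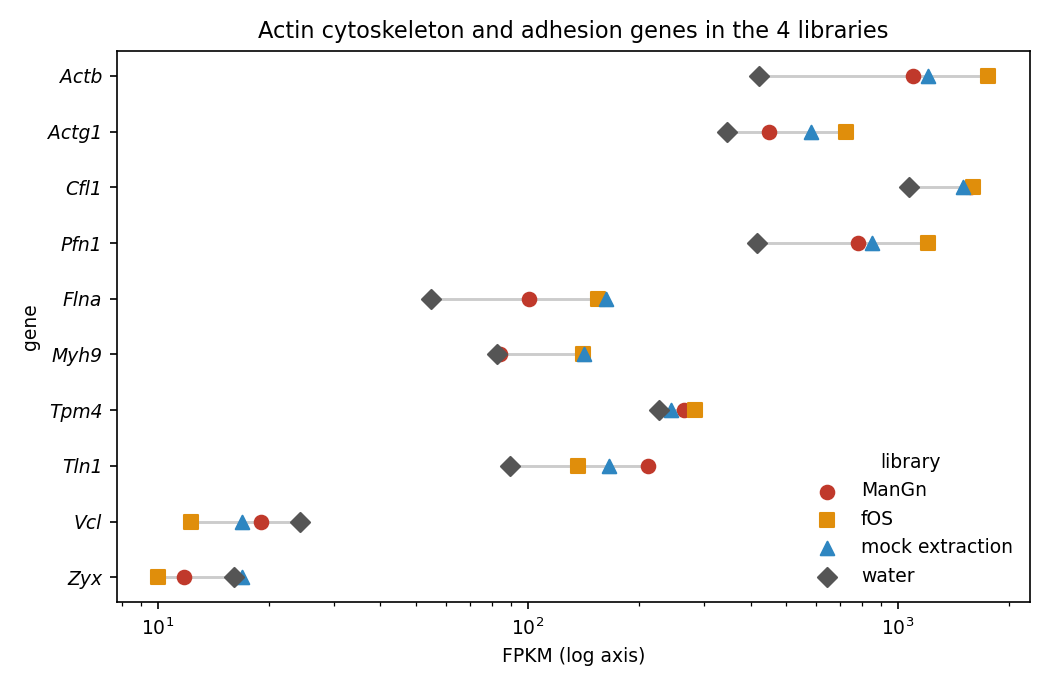
FPKM of the 10 genes (rows) on a log axis in the ManGn, fOS, mock extraction and water libraries (1 point each); grey lines join the lowest and the highest library. The water library holds the lowest value of 8 genes, and the highest of Vcl (24.25 FPKM).

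The monomer-binding proteins were among the most abundant mRNAs of the cells and followed the actins to different degrees. Pfn1, profilin 1, which loads actin monomers with ATP and feeds them to growing ends, was at 781.73 FPKM with ManGn, 1205 FPKM with fOS, 853.84 FPKM with the mock extraction and 416.98 FPKM with water. It resembled Actb, with fOS highest and water lowest, and was 2.89-fold above water with fOS (log2 1.53), 2.05-fold with the mock extraction (log2 1.03) and 1.87-fold with ManGn (log2 0.91). Cfl1, cofilin 1, which severs filaments and returns monomers, was at 1572 FPKM with ManGn, 1595 FPKM with fOS, 1500 FPKM with the mock extraction and 1072 FPKM with water. Both ligand libraries lay within 1.06-fold of the mock extraction, and fOS was 1.49-fold above water.

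Per unit of actin mRNA the 2 proteins differed. Pfn1 per summed actin was 0.506 with ManGn, 0.486 with fOS, 0.478 with the mock extraction and 0.543 with water, a narrow range. Cfl1 per summed actin was 1.02 with ManGn, 0.643 with fOS, 0.839 with the mock extraction and 1.39 with water. It was lowest where actin, the divisor, was highest, as Cfl1 itself ranged over only 1.49-fold. Together the 2 amounted to 1.52 times the actin level with ManGn, 1.13 times with fOS, 1.32 times with the mock extraction and 1.94 times with water.

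Among the genes of filament organization, Flna and Myh9 separated the ligands from each other, and Tpm4 was nearly flat. Flna, filamin A, which cross-links filaments into networks and anchors them to membrane receptors, was at 101.01 FPKM with ManGn, 154.51 FPKM with fOS, 162.71 FPKM with the mock extraction and 54.72 FPKM with water. It was 2.82-fold above water with fOS and 2.97-fold with the mock extraction. With ManGn it was 1.85-fold above water but 1.61-fold below the mock extraction (log2 0.88 and -0.69). ManGn thus lay between its 2 controls.

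Myh9, the heavy chain of nonmuscle myosin IIA, the main motor of contractility in macrophages, was at 84.14 FPKM with ManGn, 140.72 FPKM with fOS, 142.24 FPKM with the mock extraction and 82.46 FPKM with water. The libraries fell into pairs, ManGn beside water (log2 0.03) and fOS beside the mock extraction (log2 -0.02). ManGn was 1.69-fold below the mock extraction, the lowest ratio of the 10 genes in that comparison, and 93.4% of all genes tested had a ratio at or above it. Tpm4, a tropomyosin of nonmuscle filaments, was at 264.16 FPKM with ManGn, 282.98 FPKM with fOS, 244.6 FPKM with the mock extraction and 226.94 FPKM with water, a range of 1.25-fold that was the narrowest of the 10.

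The adhesion genes did not share 1 pattern, and of Tln1, Vcl and Zyx only Tln1 was lowest with water, as the actins were. Tln1, talin 1, which activates integrins and links them to actin, was at 210.93 FPKM with ManGn, 136.66 FPKM with fOS, 166.06 FPKM with the mock extraction and 89.75 FPKM with water. ManGn was the highest library, 2.35-fold above water (log2 1.23) and 1.27-fold above the mock extraction (log2 0.34). fOS was 1.52-fold above water and 1.22-fold below the mock extraction.

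Vcl, vinculin, which reinforces the talin link under tension, went the other way. It was at 18.99 FPKM with ManGn, 12.31 FPKM with fOS, 16.91 FPKM with the mock extraction and 24.25 FPKM with water. The water library was highest and fOS lowest, at 1.97-fold below water (log2 -0.97) and 1.37-fold below the mock extraction (log2 -0.45). ManGn was 1.28-fold below water and close to the mock extraction (log2 0.17). The ratio of Tln1 to Vcl was 11.1 with ManGn, 11.1 with fOS, 9.82 with the mock extraction and 3.70 with water.

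Zyx, zyxin, which recruits actin assembly factors to strained adhesions, was the least expressed of the 10 on average. It was at 11.78 FPKM with ManGn, 10.05 FPKM with fOS, 16.91 FPKM with the mock extraction and 16.05 FPKM with water. Both ligand libraries were below both controls, by 1.36-fold (water) and 1.44-fold (mock extraction) with ManGn, and by 1.60-fold (water) and 1.68-fold (mock extraction) with fOS. Its ratios carry the widest counting error of the 10 genes: the 95% counting interval reached 0.196 to 0.223 on the log2 scale to either side, against 0.0207 to 0.0233 for Cfl1. These intervals rest on an estimated 279 to 40059 reads per gene and library and cover counting error only.

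**Figure D2:**
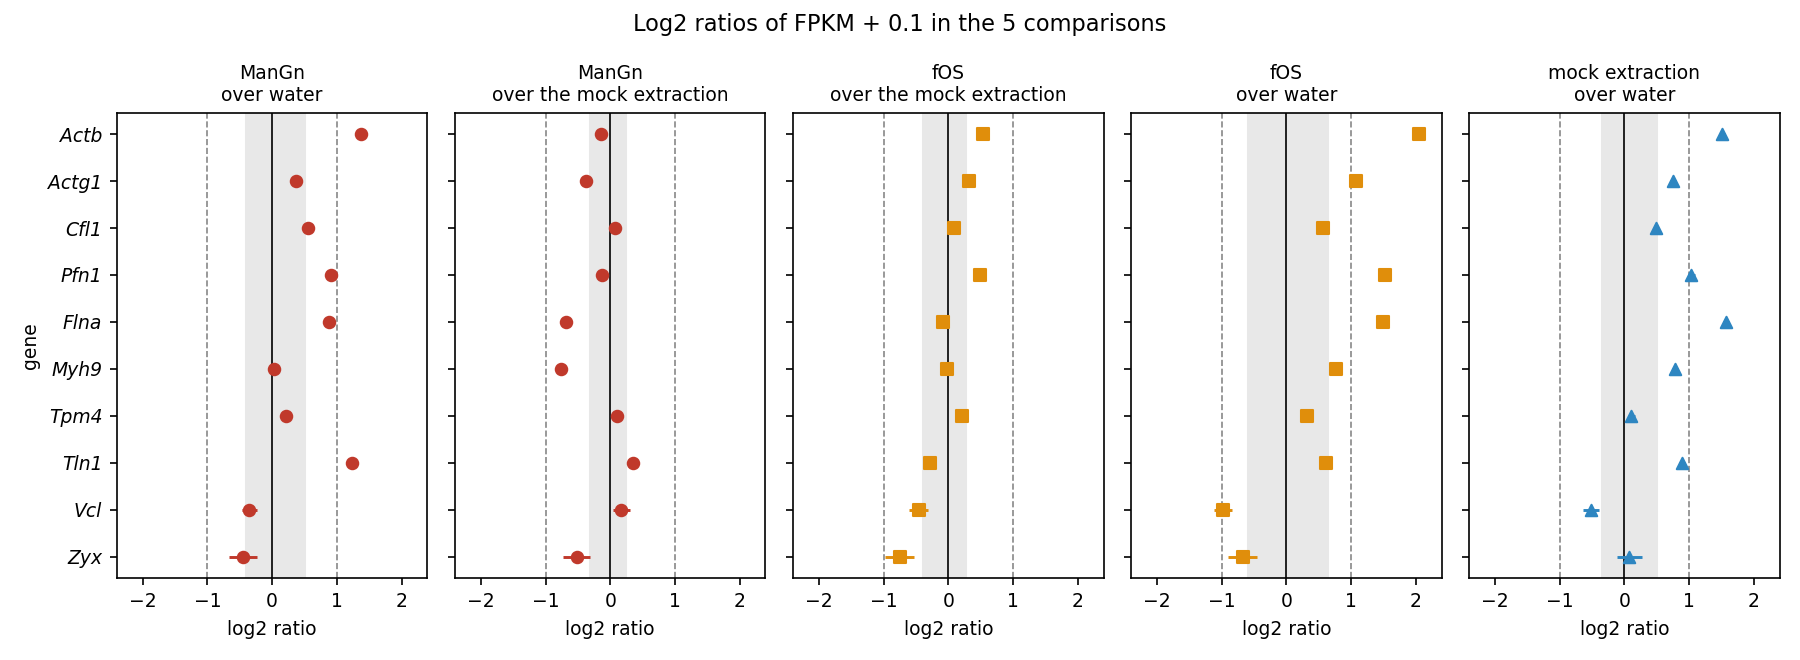
Log2 ratios of the 10 genes (rows) in each of the 5 comparisons (panels), with 95% counting intervals as horizontal bars where wider than the symbol, dashed lines at 2-fold and the middle 50% of all genes tested in grey. Points past the dashed lines appear in the 3 panels over water and in neither panel over the mock extraction.

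Counted over the 10 genes, the comparisons over water and over the mock extraction differed. With ManGn over water, 2 genes were at least 2-fold higher (Actb and Tln1), where 9.44% of all genes tested were, and 0 were 2-fold lower (7.37% of all genes). The median log2 ratio was 0.46, against 0.050 over all genes tested. With fOS over water, 4 were higher (Actb, Actg1, Flna and Pfn1; 14.1% of all genes) and 0 lower (14.3%), with a median of 0.69 against 0.046. With the mock extraction over water, 3 were higher (Actb, Flna and Pfn1; 9.24% of all genes) and 0 lower (6.69%), with a median of 0.77 against 0.074. These 3 comparisons share the water library, so a low value there raises all of them together. Some calls near 2-fold moved with the scaling. When libraries had the same sum, Flna and Pfn1 passed 2-fold with ManGn over water (log2 1.03 and 1.05). Tln1 then passed it with the mock extraction over water (1.01). When ratios were centred on the median of all genes, Pfn1 fell short with the mock extraction over water (0.96), and Vcl passed 2-fold with fOS over water (-1.02). Pfn1 also fell short there with the same upper quartile (0.953) and with scaling to the usual reference genes (0.999).

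With ManGn over the mock extraction, 0 of the 10 genes were 2-fold higher (3.51% of all genes) and 0 lower (3.47%). The median log2 ratio was -0.13, against -0.023 over all genes tested, and it turned to 0.043 when libraries were scaled to the usual reference genes, as the ratios of Actb and Pfn1 turned positive. With fOS over the mock extraction, again 0 were higher (2.67% of all genes) and 0 lower (6.41%), with a median of 0.036 against -0.024. The members were chosen with these contrasts known, so their counts are not read against the background. No member was past 2-fold over both controls with either ligand. Few genes tested were: 201 higher (1.80%) and 137 lower (1.23%) with ManGn, and 213 higher (1.90%) and 489 lower (4.37%) with fOS. Without a threshold, Tpm4, Tln1 and Cfl1 were above both controls with ManGn and Zyx below both, and Actb, Actg1, Tpm4, Cfl1 and Pfn1 were above both with fOS and Vcl and Zyx below both.

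The order of levels within a library was led by Cfl1 with ManGn, the mock extraction and water, and by Actb with fOS. Vcl and Zyx were the lowest 2 in every library, and tied at 16.91 FPKM with the mock extraction. In the whole table Actb ranked 56 with ManGn, 19 with fOS, 58 with the mock extraction and 179 with water. The 10 genes together took 0.940% of all FPKM with ManGn, 1.24% with fOS, 0.984% with the mock extraction and 0.509% with water. Vcl per 1000 FPKM of actin was 12.3 with ManGn, 4.96 with fOS, 9.46 with the mock extraction and 31.6 with water. The spread was wider than that of Vcl itself, as summed actin, the divisor, was lowest where Vcl was highest.

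**Figure D3:**
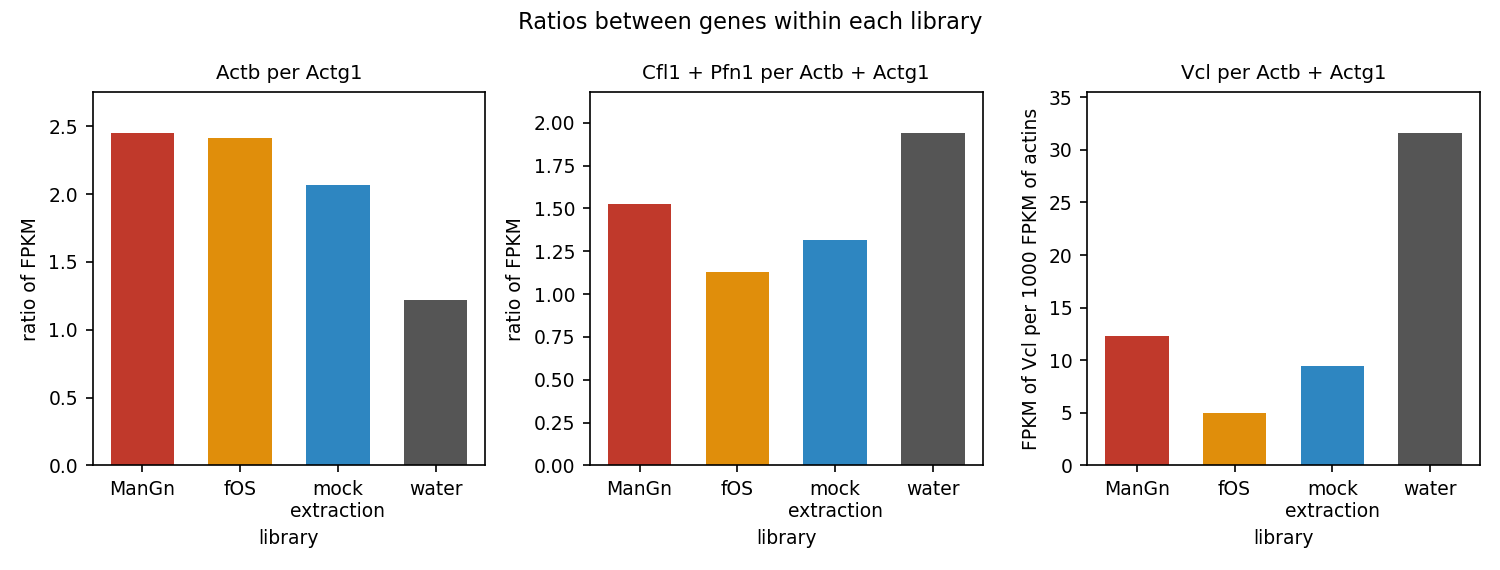
Ratios of FPKM within each library: Actb per Actg1 (left), Cfl1 plus Pfn1 per summed actin (middle) and Vcl per 1000 FPKM of summed actin (right), as bars from 0, 1 library each. The water library has the lowest Actb per Actg1 (1.22) and the highest of the other 2 ratios (1.94 and 31.6).

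The wider machinery was followed on 9 lists of actin and adhesion genes, which hold 150 genes besides the 10, of which 115 passed the filter. Of these 115, 11 were 2-fold higher (9.57%, against 9.44% of all genes tested) and 3 lower (2.61%, against 7.37%) with ManGn over water. With fOS over water, 19 were higher (16.5%, against 14.1%) and 11 lower (9.57%, against 14.3%), and with the mock extraction over water 9 were higher (7.83%, against 9.24%) and 3 lower (2.61%, against 6.69%). The shares of higher genes over water were thus close to those of all genes. Over the mock extraction, 6 were higher (5.22%, against 3.51%) and 5 lower (4.35%, against 3.47%) with ManGn, and 3 higher (2.61%, against 2.67%) and 2 lower (1.74%, against 6.41%) with fOS. The single lists below hold few genes, so their counts and medians are a description. The medians were 0.28, 0.31 and 0.26 for ManGn, fOS and the mock extraction over water, against -0.0081 for ManGn and 0.032 for fOS over the mock extraction.

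Filament cross-linkers, bundlers and capping proteins had the highest medians over water of these lists, the 10 genes left out. Of 17 genes besides Flna, 4 were higher (23.5%, against 9.44% of all genes) and 0 lower (7.37% of all genes) with ManGn over water (median 0.70). With fOS over water 5 were higher (29.4%, against 14.1%) and 3 lower (17.6%, against 14.3%; median 0.72), and with the mock extraction over water 3 were higher (17.6%, against 9.24%) and 1 lower (5.88%, against 6.69%; median 0.50). Marcksl1, a membrane-bound actin cross-linker of the MARCKS family, was at 73.49 FPKM with ManGn, 61.46 FPKM with fOS, 65.37 FPKM with the mock extraction and 17.07 FPKM with water. Actn1, alpha-actinin 1, was at 72.35 FPKM with ManGn, 98.68 FPKM with fOS, 61.67 FPKM with the mock extraction and 29.24 FPKM with water. Both were lowest with water, as the actins were. Pls3, plastin 3, a bundling protein, was 1.20 higher on the log2 scale with ManGn over water and 0.68 higher with fOS over the mock extraction.

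Flnc, the filamin best known from muscle, behaved differently from Flna. It was at 18.51 FPKM with ManGn, 3.18 FPKM with fOS, 3.41 FPKM with the mock extraction and 7.46 FPKM with water. It was highest in the ManGn library and next in water, with ManGn log2 ratios of 2.41 over the mock extraction and 1.30 over water. Evl, a filament elongation factor of the Ena/VASP family, was at 12.08 FPKM with fOS, against 21.59 FPKM with the mock extraction and 32.16 FPKM with water.

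The myosin and tropomyosin genes held another ManGn-high gene. Of 7 besides Myh9 and Tpm4, 1 (14.3%) was higher with ManGn over water (9.44% of all genes) and over the mock extraction (3.51%). For fOS over the mock extraction, 0 were higher (2.67% of all genes) or lower (6.41%). Tpm1, a tropomyosin of stress fibres, was at 180.53 FPKM with ManGn, 127.49 FPKM with fOS, 74.49 FPKM with the mock extraction and 77.74 FPKM with water. The controls were close, and the log2 ratios with ManGn were 1.28 over the mock extraction and 1.21 over water. Tpm3 instead resembled the actins, at 500.85 FPKM with ManGn, 716.54 FPKM with fOS, 568.55 FPKM with the mock extraction and 279.88 FPKM with water.

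In the adhesion plaque list, 2 of 20 genes besides Tln1, Vcl and Zyx were higher with ManGn over water (10.0%, against 9.44% of all genes), and 3 were higher (15.0%, against 14.1%) and 1 lower (14.3% of all genes) with fOS over water. Over the mock extraction, 1 was higher with ManGn (3.51% of all genes) and 1 with fOS (2.67%). With the mock extraction over water, 0 were higher (9.24% of all genes) and 1 lower (6.69%). Lasp1, which binds actin and zyxin, was at 184.71 FPKM with ManGn, 149.79 FPKM with fOS, 111.43 FPKM with the mock extraction and 62.80 FPKM with water. Tns3, tensin 3, was at 54.23 FPKM with ManGn, 55.52 FPKM with fOS, 37.17 FPKM with the mock extraction and 20.29 FPKM with water. Both had their lowest value with water, unlike Vcl. Pdlim7, a PDZ and LIM domain protein of actin structures, was at 11.53 FPKM with fOS, against 5.62 FPKM with the mock extraction and 4.84 FPKM with water. Bcar1, an adapter of adhesion signalling, was low throughout, at 2.7 FPKM with ManGn, 0.29 FPKM with fOS, 0.94 FPKM with the mock extraction and 4.37 FPKM with water, and was the gene counted as higher with ManGn over the mock extraction and as lower with fOS and with the mock extraction over water.

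Integrins, the receptors that these plaques serve, had genes past 2-fold in both directions. Of 11 integrins, 1 was higher (9.09%, against 3.51% of all genes) and 4 lower (36.4%, against 3.47%) with ManGn over the mock extraction, and 2 were higher (18.2%, against 2.67%) and 1 lower (9.09%, against 6.41%) with fOS over the mock extraction. The 4 include Itgal, near the filter at 0.47 FPKM with ManGn and 2.58 FPKM with the mock extraction. The 2 include Itga6, at 1.30 FPKM with fOS and 0.49 FPKM with the mock extraction. Over water, 1 was higher (9.44% of all genes) and 2 lower (7.37%) with ManGn. With fOS over water, 4 were higher (14.1%) and 2 lower (14.3%), and with the mock extraction over water 2 were higher (9.24%) and 1 lower (6.69%). Itgam, the alpha chain of the macrophage integrin Mac-1, was at 49.82 FPKM with ManGn, 44.44 FPKM with fOS, 135.86 FPKM with the mock extraction and 103.45 FPKM with water. It was lower with both ligands than with both controls, at log2 ratios of -1.45 and -1.05 with ManGn and -1.61 and -1.22 with fOS over the mock extraction and water. Itgax, the alpha chain of CR4, was at 9.70 FPKM with ManGn, 4.69 FPKM with fOS, 4.35 FPKM with the mock extraction and 1.49 FPKM with water. Itgav, the alpha chain of the vitronectin receptor, was at 28.19 FPKM with fOS, against 9.13 FPKM with the mock extraction and 11.39 FPKM with water. Itgb5, a partner of that chain, was at 7.59 FPKM with ManGn, against 20.84 FPKM with the mock extraction and 25.25 FPKM with water.

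Past 2-fold over both controls, the genes described above with ManGn were Flnc, Itgax and Tpm1, which were higher, and Itgam and Itgb5, which were lower. With fOS they were Itgav and Pdlim7, which were higher, and Itgam, which was lower.

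Factors that build new filaments were mostly within 2-fold, as most genes tested were. The Arp2/3 complex starts branched filaments. Of its 9 genes, 0 were 2-fold higher or lower with either ligand over the mock extraction or with ManGn over water. Of 18 nucleation promoters and formins, 0 were so with either ligand over the mock extraction. Of all genes tested, 3.51% were higher and 3.47% lower with ManGn over the mock extraction, and 2.67% and 6.41% with fOS over it. With ManGn over water the shares were 9.44% and 7.37%. Over water, 1 of the 18, Nckap1, was higher with ManGn, fOS and the mock extraction (log2 1.45, 1.03 and 1.01), at 0.82 to 2.42 FPKM. Actr2 and Arpc5l, both of the Arp2/3 complex, had opposite log2 ratios with fOS over water, 1.20 and -1.17. Of 17 monomer-binding and turnover genes besides Cfl1 and Pfn1, 3 were higher (17.6%, against 14.1% of all genes) and 4 lower (23.5%, against 14.3%) with fOS over water. Tmsb10, thymosin beta 10, which sequesters monomers, was at 866.00 FPKM with ManGn, 543.56 FPKM with fOS, 1001 FPKM with the mock extraction and 1376 FPKM with water, the reverse of Actb at its ends.

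The regulators of the CArG box stayed within 2-fold. None of the 6 genes of SRF and its cofactors was 2-fold higher or lower in any of the 5 comparisons, and the medians were between -0.17 and 0.23. Of all genes tested, 2.67% to 14.1% were higher and 3.47% to 14.3% lower per comparison, so this count of 6 genes is a description. Srf itself was at 10.32 FPKM with ManGn, 14.11 FPKM with fOS, 11.88 FPKM with the mock extraction and 12.39 FPKM with water. Mkl1, which encodes MRTF-A, was at 16.51 FPKM with ManGn, 16.98 FPKM with fOS, 24.91 FPKM with the mock extraction and 18.96 FPKM with water. mRNA levels do not report where MRTF protein is in the cell. Of 13 other SRF-MRTF targets besides the members, 4 passed the filter, among them Srf itself and Tagln at 1.07 to 1.83 FPKM. Of these 4, only Filip1l was past 2-fold in any comparison. It was higher with fOS over water (14.1% of all genes) and with the mock extraction over water (9.24%). With ManGn over the mock extraction it was lower (3.47%). Filip1l was at 6.15 FPKM with ManGn, 13.37 FPKM with fOS, 17.23 FPKM with the mock extraction and 3.38 FPKM with water.

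**Figure D4:**
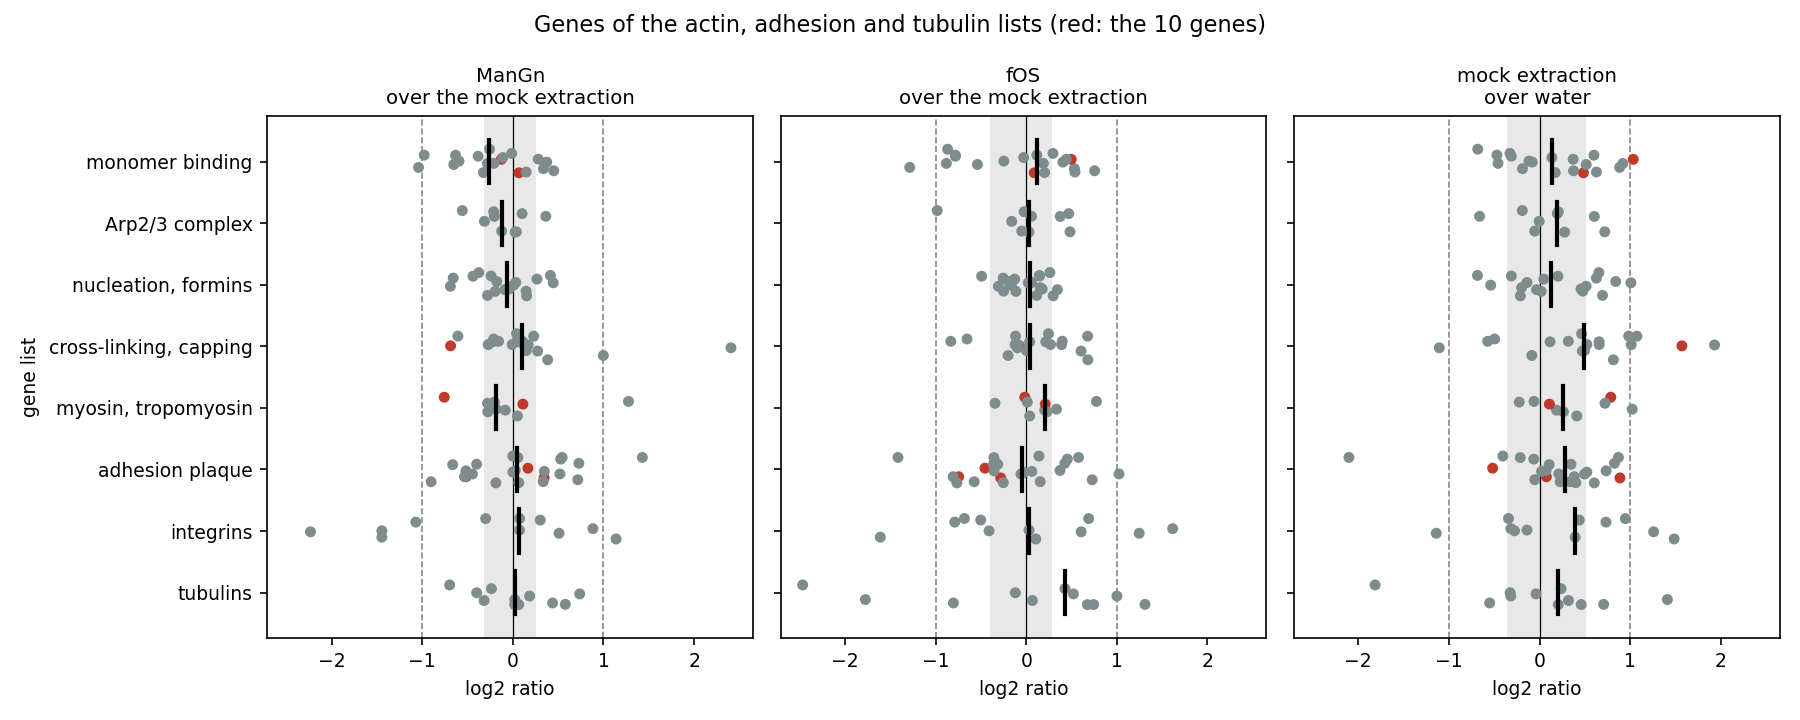
Log2 ratios of the genes that passed the filter on 7 actin and adhesion lists and the tubulin list (rows), for ManGn and fOS over the mock extraction and for the mock extraction over water (panels); red points are the 10 genes, black ticks the medians of the other genes, dashed lines mark 2-fold and grey the middle 50% of all genes. Flnc is the farthest point to the right with ManGn over the mock extraction (2.41).

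Actb varied more across these libraries than most genes used as references. Of 17 usual reference genes, ordered from the smallest to the largest log2 range over the 4 libraries, Actb came 16th with a range of 2.05, and only Tfrc, the transferrin receptor, had a wider one (4.07). Sdha (range 0.13), Ppia (0.23), Tbp (0.29) and Hprt (0.31) were the steadiest. Gapdh came 14th with a range of 1.42, at 6221 FPKM with ManGn, 4138 FPKM with fOS, 6962 FPKM with the mock extraction and 11042 FPKM with water. Gapdh was thus highest with water, where Actb was lowest. Of all genes tested 9.20% had a range at least that of Actb, as did 4.01% of the 3918 genes with a mean FPKM of at least 20, whose median range was 0.71. Actb was chosen with its values in these libraries known, so its place and these shares are a description.

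**Figure D5:**
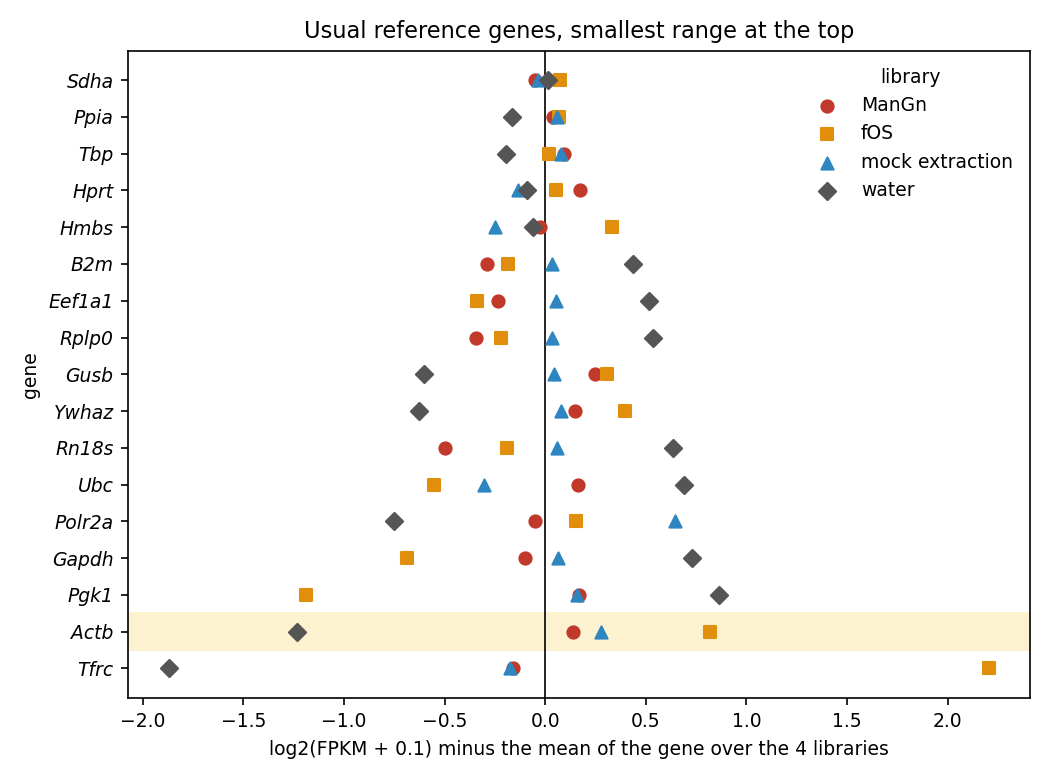
log2(FPKM + 0.1) of 17 usual reference genes (rows, smallest range at the top), less the mean of each gene over the 4 libraries, with 1 point per library; Actb is shaded. Actb has a range of 2.05, with water lowest and fOS highest, and Sdha one of 0.13.

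The choice of reference therefore sets the size of a ratio normalized to it. Cxcl10 is the chemokine used in the study as its initial readout, measured there by quantitative RT-PCR. The primers that the study lists include Gapdh and not Actb. In these libraries Cxcl10 was at 3.38 FPKM with ManGn, 3.39 FPKM with fOS, 0.9 FPKM with the mock extraction and 0.54 FPKM with water. Both control values were under FPKM 1, and no counting interval was computed for Cxcl10, so its ratios are approximate. As deposited, its log2 ratios without a pseudocount were 2.65 with ManGn, set against water, and 1.91 with fOS, set against the mock extraction. Divided by Actb, the same ratios were 1.27 and 1.37, and divided by Gapdh they were 3.47 and 2.66. Divided by Sdha, they were 2.71 and 1.80. All 6 of these normalized ratios kept the sign, but the ratio between the 2 controls did not when divided by Actb. With the mock extraction over water, it was 0.74 as deposited and -0.77 divided by Actb. It stayed positive divided by Gapdh or Sdha. With fOS over water, the ratio was 2.65 as deposited, 0.60 divided by Actb, 4.07 divided by Gapdh and 2.59 divided by Sdha. The ManGn and fOS ratios given first use different controls. Over the mock extraction alone, the ratios were 1.91 with ManGn and 1.91 with fOS as deposited, 2.05 with ManGn and 1.37 with fOS divided by Actb, 2.07 with ManGn and 2.66 with fOS divided by Gapdh, and 1.93 with ManGn and 1.80 with fOS divided by Sdha.

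The genes whose pattern over the 4 libraries lay nearest to the mean pattern of the 10 were sought among 3910 others with a mean FPKM of at least 20. The mean pattern, as log2 level less the mean of each gene, was 0.021 with ManGn, 0.22 with fOS, 0.21 with the mock extraction and -0.46 with water. The nearest were Ilkap, Rbm10, Nop14, Dock2, Slk, Dpp8, Gtf3c2 and Rfwd3, at Euclidean distances of 0.0592 to 0.0823 over 4 libraries. All 8 were nearer to the mean than any of the 10 genes, of which Cfl1 was nearest (0.197) and Vcl farthest (1.21). With 4 points per gene, such likeness is a description.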

How the data were processed

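RNA-seq of permeabilized RAW264.7 cells was analysed in 4 libraries, 1 per condition, grouped by their sample labels. The authors computed FPKM per gene with RSEM, as the labels state, and deposited them as a workbook of 8 sheets; its version, the aligner and the build were not given in the sources used here. The 2 sheets of FPKM hold the same values. The other 6 hold the authors' ratios and selections and were not used. From the deposited FPKM, log2 ratios with a pseudocount of 0.1 were computed in Python 3.11.15 with numpy 2.4.6 and pandas 2.3.3 for 5 comparisons. FPKM is relative to the total of each library, so abundant genes that change shift the others.

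No test was run. The 10 genes and the 18 other lists were chosen with earlier results of these data known. Named besides the 10 genes were, per list, the 2 genes with FPKM of at least 5 and the largest ratio with ManGn over water, fOS over the mock extraction and the mock extraction over water (a part of these is described), all usual reference genes, and the 8 nearest patterns. Other genes were named after their values were seen. A list enters the joint counts but is not reported here on its own. Depth was estimated from genes of 1 length in GENCODE M21, and ratios and depth were tested on simulated data. Alternatives were pseudocounts, filters, scalings, thresholds, the summed actins, and lists without the 10 genes.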

Additional observations from a re-analysis of the deposited data

How the results depend on the processing

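No paired analysis was possible because each condition has 1 library. With 1 library per condition no replicate could be left out, and depth limits mainly Zyx. Of 400 values of the 10 genes under the alternatives, 388 kept their side of the 2-fold threshold, 4 lost it, 8 gained it and 0 changed direction past it. The changes of filter could not move any of these values, as all 10 genes were at FPKM 10.05 or more in every library. No scaling shift was large enough to reverse a 2-fold ratio, so that 0 was fixed in advance. Scaling moved the median log2 ratio of all genes by up to 0.16 (same sum), -0.13 (same upper quartile) and 0.17 (usual reference genes without Actb). Scaled to the same sum, 4 of the 10 genes were higher with ManGn over water (Flna at 1.03 and Pfn1 at 1.05 were added), and the medians were 0.61 for ManGn, 0.84 for fOS and 0.89 for the mock extraction, each over water. Scaled to the same upper quartile, the median of fOS over water was 0.56, and Actg1 (0.94) was no longer past 2-fold there. Scaled to the reference genes, 4 were higher with ManGn over water (median 0.60) and the median of ManGn over the mock extraction was 0.043. Under centring, upper quartile and reference scaling 1 gene, Vcl, was lower with fOS over water (log2 -1.02, -1.10 and -1.01). At 1.5-fold, 4 were higher with ManGn over water, 6 with the mock extraction over water, and 2, 1 and 2 lower with ManGn over the mock extraction, fOS over the mock extraction and fOS over water. At 3-fold, 0 were higher with ManGn over water, 1 with fOS over water and 0 with the mock extraction over water. Over all genes, the share of calls that were higher was 69.8% with the same sum for ManGn over water, against 56.2% as deposited, 61.6% against 49.7% for fOS over water and 69.2% against 58.0% for the mock extraction over water, and with reference scaling it was 69.2% for ManGn over water and 68.0% against 50.3% for ManGn over the mock extraction. With the same upper quartile the share was lower for the comparisons over water, at 51.6% for ManGn, 39.8% for fOS and 49.6% for the mock extraction. Per comparison and direction, 299 to 1597 of all genes were past 2-fold, against 976 to 3004 past 1.5-fold, 132 to 760 past 3-fold, 216 to 1260 with a pseudocount of 1 and 181 to 1296 with FPKM of at least 5 required. The sum of both actins was 1.01 higher with ManGn and 1.22 higher with the mock extraction over water on the log2 scale.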

Other observations

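Tubulins, the subunits of the other main filament system, included genes with larger ratios than any of the actins. Of 11 tubulins that passed the filter, 2 were 2-fold higher (18.2%, against 2.67% of all genes) and 2 lower (18.2%, against 6.41%) with fOS over the mock extraction. With ManGn over the mock extraction, 0 were higher (3.51% of all genes) or lower (3.47%). Tuba1a was at 56.98 FPKM with ManGn, 16.34 FPKM with fOS, 56.15 FPKM with the mock extraction and 21.06 FPKM with water, so ManGn resembled the mock extraction and fOS resembled water. Tubb4a was at 3.07 FPKM with ManGn, 0.83 FPKM with fOS, 5.04 FPKM with the mock extraction and 17.98 FPKM with water. Tubulin genes are near-identical in places, so reads could be split between them.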
